A study of Homo sapiens with 9 samples.

Results

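The genes of sterol and fatty acid synthesis, with the sensors that set their level, were followed after knockdown of acid ceramidase (ASAH1), the lysosomal enzyme that splits ceramide into sphingosine and a fatty acid. The 39 genes were taken by name from the 26485 genes of the deposited tables, from a list of the pathways, and all 39 passed the filter on low values in each comparison. They were described in 3 groups. The cholesterol branch held 24 genes, namely 18 enzymes, the cholesterol carrier STARD4 and 5 regulators of the sterol response. The fatty acid branch held 10 genes. The liver X receptor (LXR) group held 3 target genes and 2 receptors.

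The cells were MDA-MB-231, a human cell line established from triple-negative breast cancer and of mesenchymal character, grown in medium with serum, which itself supplies cholesterol and fatty acids. RNA was sequenced from 3 libraries of cells expressing a nonspecific (NS) shRNA, 3 of cells with ASAH1 shRNA #1 and 3 of cells with ASAH1 shRNA #2. The groups share the parental line and differ in the hairpin alone, as far as the labels say. Only 1 control hairpin and 1 cell line were used, and both knockdown groups were set against the same 3 NS shRNA libraries, so the comparisons with NS shRNA are not independent of each other.

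Cholesterol is built from acetyl units through mevalonate, isoprenoids, squalene and lanosterol, and fatty acids are built from the same acetyl units and then elongated and desaturated. Both branches are driven by the sterol regulatory element-binding proteins (SREBPs), made from SREBF1 and SREBF2 as precursors held in the membrane of the endoplasmic reticulum. When membrane cholesterol is low, the escort protein SCAP carries the precursors to the Golgi for cleavage, and when it is high, the INSIG proteins hold SCAP back. The LXRs work the other way: oxysterols activate them, and they raise genes that export cholesterol and, through SREBF1 and SCD, genes of fatty acid synthesis. Tumour cells are known to keep both pathways active for membrane growth.

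Each NS shRNA library held 31.0 M to 34.9 M reads on genes, each shRNA #1 library 23.8 M to 39.8 M and each shRNA #2 library 35.7 M to 49.7 M. Levels are counts-per-million values (CPM) after trimmed-mean (TMM) scaling over all 9 libraries. ASAH1 itself averaged 135 ± 1.47 (SD, n = 3) CPM with NS shRNA, 40.0 ± 1.78 (SD, n = 3) with shRNA #1 and 21.8 ± 0.623 (SD, n = 3) with shRNA #2. The mesenchymal marker VIM ran from 1260 to 2070 CPM and CD44 from 705 to 861 CPM, while the hormone receptor genes ESR1 and PGR had 0 to 2 reads per library. The leukocyte marker PTPRC had 1 to 8 reads, and the endothelial marker PECAM1 39 to 102 reads (1.17 to 3.02 CPM). Fold changes against NS shRNA come from limma on log2(normalized count + 1) within each deposited table, and a gene was called at a Benjamini-Hochberg adjusted p below 0.05. Differences between the hairpins were tested by edgeR (quasi-likelihood) on read counts recovered for the 9 libraries. The SE given for these differences is the absolute log2 ratio over the square root of edgeR's F statistic.

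In control cells the 39 genes spanned a wide range of levels. Levels were divided by the merged length of all GENCODE v44 exons of a gene, such as 1002 bases for PMVK and 9018 bases for MVK. That length can exceed the transcript expressed, so the order of the genes is approximate, also beyond the spread between libraries. Per kilobase of exon, SCD, the stearoyl-CoA desaturase that makes oleate, led with 132 ± 7.52 CPM per kb (SD, n = 3). ELOVL5, which elongates polyunsaturated chains, followed at 67.4 ± 2.14 CPM per kb (SD, n = 3). The next members could not be ordered beyond their spread: EBP, the sterol isomerase, stood at 56.8 ± 6.15 CPM per kb and ACLY, which makes cytosolic acetyl-CoA, at 56.2 ± 1.81 CPM per kb, while FASN, the fatty acid synthase, stood at 45.4 ± 2.71 CPM per kb and FDPS, the farnesyl diphosphate synthase, at 44.5 ± 3.76 CPM per kb (SD, n = 3 each). At the low end were MVK (2.51 ± 0.200 CPM per kb), the sterol exporter gene ABCG1 (2.49 ± 0.129 CPM per kb) and HSD17B7 (1.48 ± 0.119 CPM per kb; SD, n = 3 each). The level per kilobase of the regulators lay in the middle of the range, from 19.4 CPM per kb for SCAP to 27.0 CPM per kb for INSIG1.

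**Figure D1:**
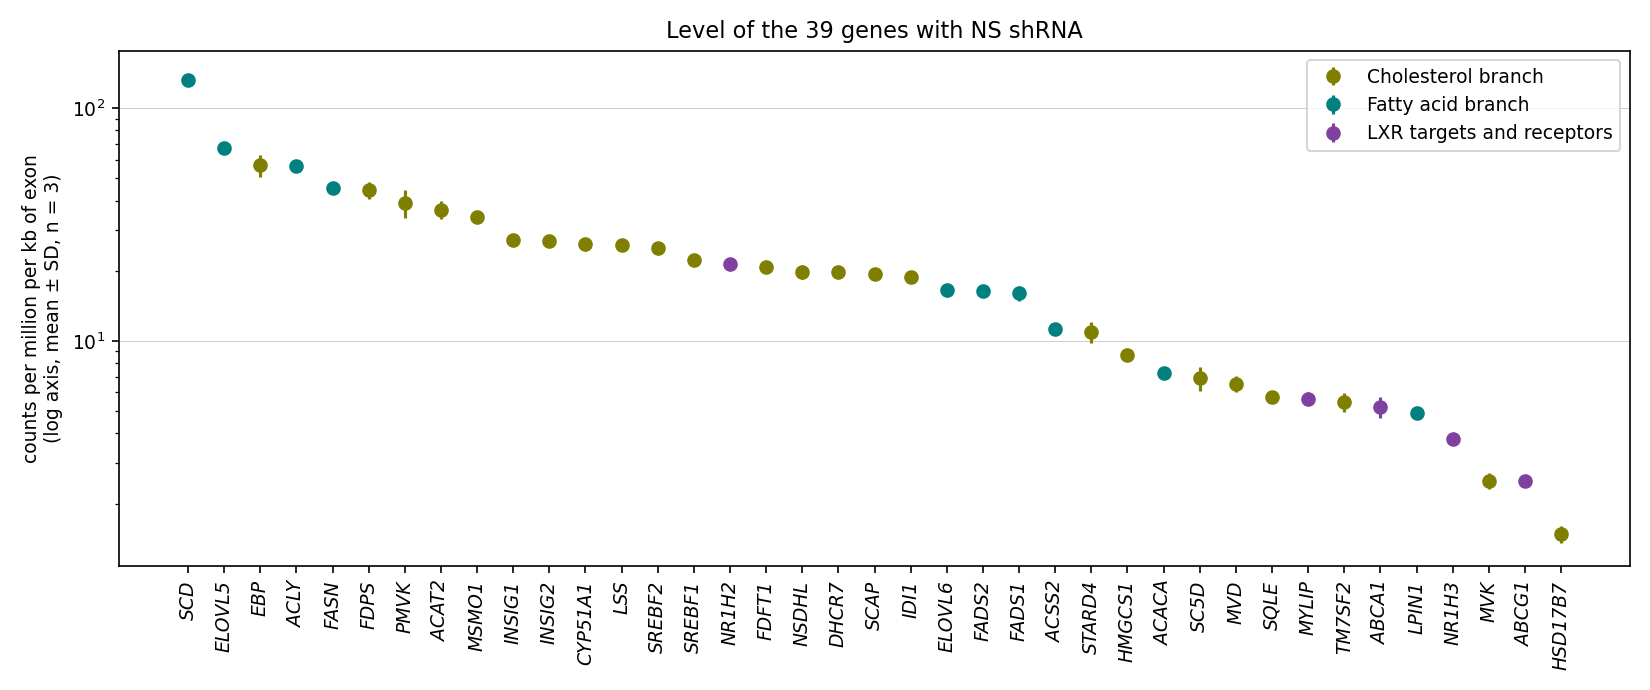
Level of each of the 39 genes with NS shRNA in CPM per kilobase of exon on a log axis, as the mean and SD of 3 libraries, ordered from high to low and coloured by group. SCD stands highest at 132 and HSD17B7 lowest at 1.48, and the 5 LXR genes lie in the lower part with the exception of NR1H2 at 21.4.

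With ASAH1 shRNA #1 most of the genes of sterol and fatty acid synthesis fell. Of the 39 genes, 31 were lower than with NS shRNA (79.5%), 8 did not pass the test and 0 were higher by limma. The count of higher members was also 0 at an unadjusted p below 0.05, and 0 by edgeR and by DESeq2. Across all 14341 genes tested with shRNA #1, 33.3% were called lower, 32.8% higher and 66.1% in either direction. The median log2 fold change of the members was -0.57, beside 0.001 over all genes tested. For 33 of the 39 members the 3 shRNA #1 libraries and the 3 NS shRNA libraries did not overlap, as held for 69.1% of all genes tested.

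With ASAH1 shRNA #2, which left less ASAH1 RNA, the members went apart. Here 19 were lower (48.7%), 8 were higher (20.5%) and 12 did not pass the test, with a median log2 fold change of -0.11 beside 0.01 over all genes. Across all 14250 genes tested with shRNA #2, 33.4% were called lower, 33.5% higher and 66.9% in either direction, so the share of members called higher lay below that of all genes and the share called lower above it. The groups did not overlap for 28 of the 39 members, a share near the 70.0% of all genes tested. The balance with shRNA #2 depends on the scaling more than that with shRNA #1: rescaling by total counts shifted the median of all genes by -0.135, to -0.122, and values near 0 are read against that shift.

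**Figure D2:**
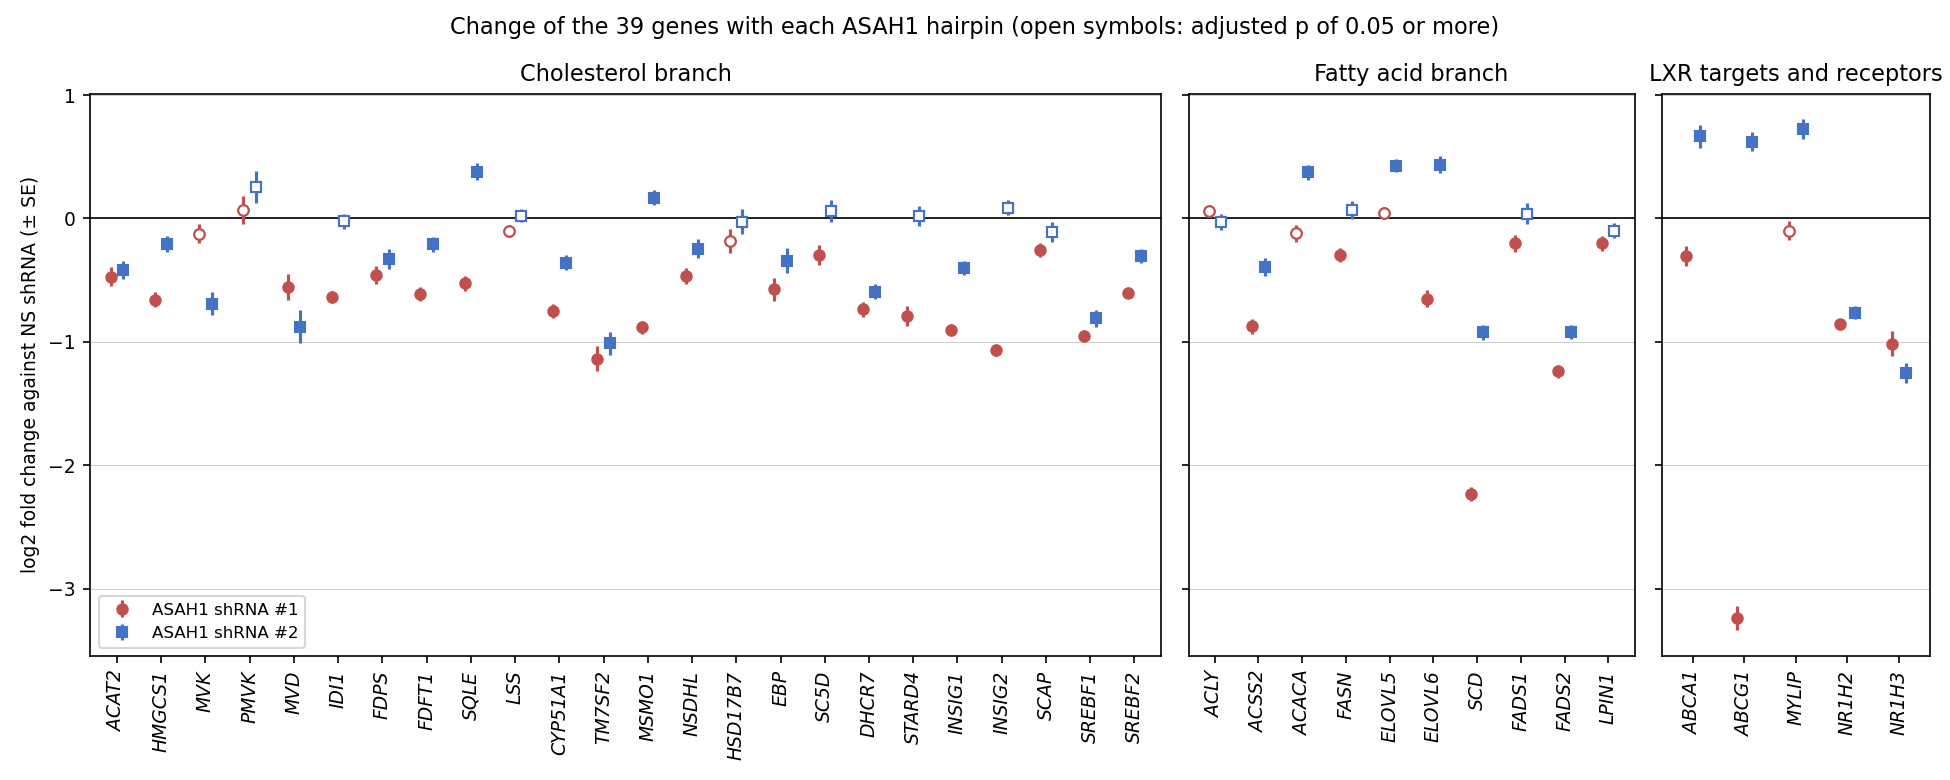
Log2 fold change against NS shRNA (± standard error, limma, 3 libraries against 3) of each member with ASAH1 shRNA #1 (circles) and shRNA #2 (squares), in 3 panels for the cholesterol branch, the fatty acid branch and the LXR group, with open symbols for an adjusted p of 0.05 or more. No filled circle lies above 0, whereas the squares lie on both sides, and ABCG1 (-3.24) and SCD (-2.23) with shRNA #1 stand lowest.

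The regulators of the sterol response form the top of the cholesterol branch. All 5 of them fell with shRNA #1, and 3 of the 5 fell with shRNA #2, beside 33.3% and 33.4% of all genes. INSIG1, which retains SCAP and is itself a gene that SREBPs raise, was at 97.9, 103 and 95.2 CPM with NS shRNA, at 52.8, 51.6 and 54.2 CPM with shRNA #1 and at 76.9, 73.6 and 73.7 CPM with shRNA #2. The 3 groups of libraries did not overlap, with shRNA #1 lowest and shRNA #2 between. The fall measured -0.90 on the log2 scale with shRNA #1 (SE 0.05, limma adjusted p = 4.71e-07) and -0.40 with shRNA #2 (SE 0.056, limma adjusted p = 9.51e-05). INSIG2, the second retention protein, was at 107, 106 and 103 CPM with NS shRNA, at 49, 52.6 and 49.8 CPM with shRNA #1 and at 109, 109 and 120 CPM with shRNA #2. Its level with shRNA #1 was thus 47.9% of the control level, a log2 fold change of -1.07 (SE 0.049, limma adjusted p = 1.52e-07), whereas the value with shRNA #2 was 0.09 and did not pass the test (limma adjusted p = 0.2).

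SREBF1, the gene of the SREBP that mainly serves fatty acid synthesis, was at 181, 188 and 182 CPM with NS shRNA. It was at 92.3, 94.7 and 98.7 CPM with shRNA #1 and at 112, 94.4 and 111 CPM with shRNA #2. Both knockdown groups lay well under the control, and they overlapped each other. The log2 fold changes were -0.95 (SE 0.046, limma adjusted p = 1.96e-07) and -0.81 (SE 0.07, limma adjusted p = 3.13e-06). SREBF2, the gene of the SREBP that mainly serves cholesterol synthesis, was at 193, 209 and 203 CPM with NS shRNA, at 133, 135 and 132 CPM with shRNA #1 and at 171, 155 and 165 CPM with shRNA #2. On the log2 scale it changed by -0.60 with shRNA #1 and by -0.31 with shRNA #2 (limma adjusted p = 3.01e-06 and 0.00081), with no overlap between any of the groups. SCAP, the escort of both, fell with shRNA #1 (log2 fold change -0.26, limma adjusted p = 0.00423), and its value with shRNA #2 was -0.11 (limma adjusted p = 0.258).

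Promoters of the members were searched for letters that sterol-responsive factors are known to read. The 250 bases before each RefSeq transcript start (build GRCh38.p14) were searched on both strands, for 34 of the 39 members with 50 starts in all, and for 35116 starts of the whole table. ABCG1, ACAT2, FASN, FDFT1 and SQLE had no entry in the promoter table. The sterol regulatory element core TCACNCCAC was found before 0.883% of all starts and, among the members, before SREBF2 alone, at 133 to 125 bases upstream. The palindromic E-box TCACGTGA, which SREBPs can also bind, was found before 0.854% of all starts and, among the members, before INSIG1 alone, at 56 to 49 bases upstream. These searches are a description of letters, with no test, and a member without a match in this window may hold such letters elsewhere. The SREBF2 window is chr22:41832855-41833104 on the plus strand, with the sterol regulatory element and a CCAAT box (read here as its reverse complement) in capitals. The INSIG1 window is chr7:155297811-155297840 on the plus strand, with the E-box in capitals. Both are shown because they hold these matches, and both genes are regulators whose own level fell with both hairpins. SREBF1, the other regulator that fell with both, had neither match nor a CCAAT box in its window.
SREBF2: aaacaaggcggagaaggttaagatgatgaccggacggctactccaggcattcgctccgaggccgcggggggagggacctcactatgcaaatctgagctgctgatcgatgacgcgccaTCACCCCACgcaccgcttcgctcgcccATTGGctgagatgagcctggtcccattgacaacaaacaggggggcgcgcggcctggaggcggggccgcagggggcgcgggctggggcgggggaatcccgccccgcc
INSIG1: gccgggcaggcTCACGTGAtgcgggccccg

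Commoner promoter letters were frequent among the members too. A CCAAT box (CCAAT), the site of the nuclear factor Y that works beside SREBPs, lay before 27 of the 50 member starts (54%), against 32% of all starts, and belonged to 23 members. A GC box (GGGCGG), the site of Sp1-type factors, lay before 42 of the 50 member starts (84%), against 42.6% of all starts, and belonged to 32 members. All starts were taken whether or not the gene was expressed in these cells, whereas every member passed the filter on low values. A member with several starts was counted at each. Whether the shares differ from those of other expressed genes was not tested.

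Of the 18 enzymes of the cholesterol branch, 14 fell with shRNA #1, 0 rose and 4 did not pass the test, with a median log2 fold change of -0.54. The count of enzymes higher with shRNA #1 was 0 as well at an unadjusted p below 0.05, by edgeR and by DESeq2. With shRNA #2, 11 fell, 2 rose and 5 did not pass, with a median of -0.23. Across all genes, 33.3% were lower and 32.8% higher with shRNA #1, and 33.4% and 33.5% with shRNA #2.

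The early steps run from acetyl units to farnesyl diphosphate. ACAT2, which joins acetyl units, fell from 96.6 ± 8.27 CPM to 69.8 ± 5.81 CPM with shRNA #1 and 72.3 ± 3.92 CPM with shRNA #2 (SD, n = 3), log2 fold changes of -0.47 and -0.42. HMGCS1, which makes hydroxymethylglutaryl-CoA and is a classical SREBP target, fell from 57.8 ± 2.81 CPM to 36.8 ± 2.18 CPM with shRNA #1 and 50.1 ± 2.27 CPM with shRNA #2 (SD, n = 3). The fall of HMGCS1 with shRNA #2 was slight (-0.21, limma adjusted p = 0.0151), and it lost the call without NS shRNA replicate 2 (-0.18, limma adjusted p = 0.0717) and without shRNA #2 replicate 3 (-0.17, limma adjusted p = 0.056). Mevalonate kinase, MVK, showed the reverse order: it did not pass the test with shRNA #1 (-0.12, limma adjusted p = 0.183, and -0.19, limma adjusted p = 0.0453, without NS shRNA replicate 3) and fell with shRNA #2 to 62.1% of the control level (-0.69, limma adjusted p = 8.11e-05). MVD, which decarboxylates mevalonate diphosphate, fell with both (-0.55 and -0.88). IDI1, the isomerase of the isoprenoid units, fell to 64.5% of the control level with shRNA #1 (-0.64) and stood at 98.7% with shRNA #2 (-0.02, limma adjusted p = 0.751). FDPS fell with both (log2 fold changes -0.46 and -0.33). PMVK, the second kinase of the mevalonate pathway, passed neither test (0.07 and 0.26, limma adjusted p = 0.604 and 0.101), though the second value was 0.37 (limma adjusted p = 0.0265) without shRNA #2 replicate 2.

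The committed sterol steps begin with FDFT1, the squalene synthase, which fell to 65.6% of the control level with shRNA #1 (-0.61) and to 86.7% with shRNA #2 (-0.21). SQLE, the squalene epoxidase and a rate-controlling step, moved in opposite directions. It was at 24.3, 25.0 and 25.2 CPM with NS shRNA, at 16.4, 17.6 and 17.8 CPM with shRNA #1 and at 31.2, 31.9 and 34.1 CPM with shRNA #2, so the 3 groups did not overlap. The log2 fold changes of SQLE were -0.53 (SE 0.063, limma adjusted p = 5.85e-05) and 0.38 (SE 0.066, limma adjusted p = 0.000484). LSS, which closes the ring to lanosterol, passed neither test (-0.10 and 0.02), though the value with shRNA #1 was -0.14 (limma adjusted p = 0.0474) without shRNA #1 replicate 3.

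Of the enzymes that turn lanosterol into cholesterol, TM7SF2, a sterol reductase, fell the most. It was at 20.5, 18.1 and 17.1 CPM with NS shRNA, at 7.66, 8.18 and 9.63 CPM with shRNA #1 and at 9.61, 8.68 and 9.38 CPM with shRNA #2. Both knockdown groups lay under the control and overlapped each other, with log2 fold changes of -1.14 (SE 0.104, limma adjusted p = 1.06e-05) and -1.01 (SE 0.092, limma adjusted p = 4.6e-06). CYP51A1, the lanosterol demethylase, fell with both (-0.75 and -0.36), and so did the dehydrogenase NSDHL (-0.46 and -0.25), the isomerase EBP (-0.58 and -0.34) and DHCR7, the final reductase (-0.74 and -0.59). MSMO1, the methylsterol oxidase, was at 91.9, 102 and 96.8 CPM with NS shRNA, at 52.8, 53.3 and 52.0 CPM with shRNA #1 and at 108, 106 and 113 CPM with shRNA #2. The libraries with shRNA #1 were all far under the control and those with shRNA #2 just over it. The log2 fold change with shRNA #1 was -0.88 (limma adjusted p = 7.04e-07). The rise with shRNA #2 was 0.17 (limma adjusted p = 0.0262), and rescaling by upper quartile (0.076, limma adjusted p = 0.398) or by total counts (0.035, limma adjusted p = 0.616) ended that call. The rise of MSMO1 was also lost without NS shRNA replicate 1 (0.13, limma adjusted p = 0.0918) and without shRNA #2 replicate 1 (0.18, limma adjusted p = 0.0619) or 3 (0.14, limma adjusted p = 0.0865). With shRNA #2, NSDHL lost its call without NS shRNA replicate 1 (-0.19, limma adjusted p = 0.0656) and without shRNA #2 replicate 1 (-0.20, limma adjusted p = 0.0751), and EBP without NS shRNA replicate 1 (-0.30, limma adjusted p = 0.0549) or 2 (-0.30, limma adjusted p = 0.0555). SC5D, the sterol desaturase, fell with shRNA #1 alone (-0.30, against 0.06 with shRNA #2), and HSD17B7 passed neither test (-0.18 and -0.02). STARD4, which moves cholesterol between membranes, fell to 57.9% of the control level with shRNA #1 (-0.79) and stood at 101% with shRNA #2 (0.02, limma adjusted p = 0.827). SQLE and MSMO1 are given by library after their values had been seen.

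The annotation sets possible limits on these values. Per the methods, the authors counted reads on UCSC gene annotations. The overlaps given here are those of GENCODE v44, so their effect on the deposited counts is not known. In GENCODE v44, exons of TM7SF2 overlap those of VPS51 on the same strand, those of FADS2 overlap FEN1, those of FADS1 overlap a microRNA gene, and CYP51A1 and EBP overlap genes without a symbol. Named pseudogenes exist for FDPS (8), CYP51A1 (3), IDI1 (3), HSD17B7 (2) and SCD (1), so reads of these genes could be shared with near copies and their levels are uncertain to that extent.

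In the fatty acid branch 7 of the 10 members fell with shRNA #1, 0 rose and 3 did not pass the test, with a median log2 fold change of -0.25. The count of members higher with shRNA #1 was again 0 at an unadjusted p below 0.05, by edgeR and by DESeq2. With shRNA #2, 3 members rose, 3 fell and 4 did not pass, with a median of 0.01, and these shares were near those of all genes with shRNA #2 (33.5% higher and 33.4% lower). Across all genes 33.3% were lower with shRNA #1. ACSS2, SCD and FADS2 fell with each hairpin.

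SCD showed the largest change of the branch. It was at 662, 683 and 738 CPM with NS shRNA, at 154, 148 and 143 CPM with shRNA #1 and at 363, 386 and 352 CPM with shRNA #2. The 3 groups lay far apart, with shRNA #1 at 21.3% and shRNA #2 at 52.9% of the control level. The log2 fold changes of SCD were -2.23 (SE 0.055, limma adjusted p = 5.25e-09) and -0.92 (SE 0.059, limma adjusted p = 4.19e-07). The gene lies on chromosome 10 of hg38 from 100347233 to 100364826 on the plus strand, and its upstream window is shown as that of the member with the highest level and the largest fall of the branch. It is chr10:100346983-100347232 on the plus strand, and the capitals mark its CCAAT boxes, at 229 to 225 and 186 to 182 bases upstream.
SCD: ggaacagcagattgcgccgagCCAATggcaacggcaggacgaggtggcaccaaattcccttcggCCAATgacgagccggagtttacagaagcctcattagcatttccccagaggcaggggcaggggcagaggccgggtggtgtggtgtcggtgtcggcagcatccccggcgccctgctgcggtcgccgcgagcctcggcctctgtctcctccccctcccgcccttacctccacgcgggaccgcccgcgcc

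FADS2, the desaturase that starts the synthesis of long polyunsaturated fatty acids, was the other strong fall. It was at 168, 165 and 182 CPM with NS shRNA, at 75.5, 73.0 and 70.3 CPM with shRNA #1 and at 93.0, 91.7 and 88.9 CPM with shRNA #2. No groups overlapped, and the log2 fold changes were -1.24 (SE 0.056, limma adjusted p = 1.34e-07) and -0.92 (SE 0.057, limma adjusted p = 3.4e-07). Its neighbour FADS1, the next desaturase of the same route, behaved otherwise. FADS1 was at 164 ± 12.7 CPM with NS shRNA, 143 ± 8.24 CPM with shRNA #1 and 169 ± 18.5 CPM with shRNA #2 (SD, n = 3). Its log2 fold change of -0.20 with shRNA #1 passed narrowly (limma adjusted p = 0.0265) and lost the call without NS shRNA replicate 1 (-0.21, limma adjusted p = 0.0517), without NS shRNA replicate 3 (-0.14, limma adjusted p = 0.0683) and without shRNA #1 replicate 2 (-0.21, limma adjusted p = 0.0668) or 3 (-0.15, limma adjusted p = 0.0785).

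The enzymes that supply and join acetyl units moved less. FASN was at 395, 434 and 442 CPM with NS shRNA, at 336, 364 and 337 CPM with shRNA #1 and at 492, 412 and 434 CPM with shRNA #2. The shRNA #1 libraries lay below the control and the shRNA #2 libraries overlapped it, and the log2 fold changes were -0.30 (SE 0.055, limma adjusted p = 0.00108) and 0.07 (SE 0.073, limma adjusted p = 0.423). ACSS2, which makes acetyl-CoA from acetate and is a classical SREBP target, fell with both hairpins, to 54.7% and 76.5% of the control level (-0.87 and -0.39). ACLY, which makes acetyl-CoA from citrate, passed neither test (0.06 and -0.03). ACACA, the acetyl-CoA carboxylase that makes malonyl-CoA, did not pass with shRNA #1 (-0.12) and rose with shRNA #2 (0.37, limma adjusted p = 0.000207).

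Both elongases among the members, ELOVL6 and ELOVL5, rose with shRNA #2. ELOVL6, which extends palmitate to stearate, the substrate of SCD, was at 115, 116 and 129 CPM with NS shRNA, at 81.3, 78.8 and 70.4 CPM with shRNA #1 and at 163, 175 and 151 CPM with shRNA #2. Its groups did not overlap and it moved in opposite directions, with log2 fold changes of -0.65 (SE 0.07, limma adjusted p = 2.96e-05) and 0.44 (SE 0.07, limma adjusted p = 0.000275). ELOVL5 did not pass with shRNA #1 (0.04, limma adjusted p = 0.438) and rose to 135% of the control level with shRNA #2 (0.43, limma adjusted p = 4.43e-05). LPIN1, the phosphatidate phosphatase of triglyceride synthesis, had log2 fold changes of -0.20 with shRNA #1 (limma adjusted p = 0.0166) and -0.10 with shRNA #2 (limma adjusted p = 0.163), and without shRNA #1 replicate 3 the first of these was -0.14 (limma adjusted p = 0.0583). The ELOVL6 libraries were singled out after their values had been seen.

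The LXR group divided into targets and receptors. Both receptors fell with both hairpins. The 3 targets rose with shRNA #2, while with shRNA #1 ABCA1 and ABCG1 fell and MYLIP did not pass the test. Over the 5 genes, 4 fell, 0 rose and 1 did not pass with shRNA #1, and 3 rose and 2 fell with shRNA #2, beside 66.1% and 66.9% of all genes called in either direction. The count of 0 rises with shRNA #1 was the same at an unadjusted p below 0.05, by edgeR and by DESeq2.

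ABCG1, which exports cholesterol to lipoprotein particles, changed more than any other member. It was at 14.9, 16.2 and 14.7 CPM with NS shRNA, at 1.56, 1.53 and 1.68 CPM with shRNA #1 and at 24.7, 22.2 and 23.8 CPM with shRNA #2. The shRNA #1 libraries held about 10.4% of the control level and the shRNA #2 libraries 154% of it. The log2 fold changes of ABCG1 were -3.24 (SE 0.099, limma adjusted p = 1.36e-08) and 0.62 (SE 0.077, limma adjusted p = 4.28e-05). The fewest reads on it were 39, in a shRNA #1 library, the fewest on any member. ABCG1 lies on chromosome 21 of hg38 from 42199689 to 42297244 on the plus strand.

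ABCA1, which exports cholesterol to apolipoprotein acceptors, was at 54.0, 57.3 and 66.1 CPM with NS shRNA, at 48.6, 50.4 and 44.5 CPM with shRNA #1 and at 99.7, 99.6 and 83.0 CPM with shRNA #2. Its groups did not overlap, though the gap between NS shRNA and shRNA #1 was small. The log2 fold changes were -0.31 (SE 0.082, limma adjusted p = 0.00828) and 0.67 (SE 0.093, limma adjusted p = 0.000101). MYLIP, a ubiquitin ligase that removes lipoprotein receptors, was at 16.6, 16.8 and 18.6 CPM with NS shRNA, at 16.7, 16.7 and 15.4 CPM with shRNA #1 and at 29.3, 30.3 and 26.8 CPM with shRNA #2. It overlapped the control with shRNA #1 (-0.10, limma adjusted p = 0.276) and rose well clear of it with shRNA #2 (0.73, SE 0.08, limma adjusted p = 1.77e-05). MYLIP is given by library after its values had been seen.

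LXRs with their partner RXR bind a direct repeat of the half-site AGGTCA with 4 bases between. A search for this repeat with up to 2 mismatches in the 12 defined bases, added after the values had been seen, matched before 2.03% of all starts. Among the members it matched ABCA1 alone, at 69 to 54 bases upstream, on the strand opposite to the gene and with 2 mismatches. The ABCA1 window is chr9:104928156-104928405 on the minus strand, shown because the gene moved in opposite directions with the hairpins, with the repeat in capitals. ABCG1 had no entry in the promoter table, and for MYLIP the search says only that these letters are absent from this window.
ABCA1: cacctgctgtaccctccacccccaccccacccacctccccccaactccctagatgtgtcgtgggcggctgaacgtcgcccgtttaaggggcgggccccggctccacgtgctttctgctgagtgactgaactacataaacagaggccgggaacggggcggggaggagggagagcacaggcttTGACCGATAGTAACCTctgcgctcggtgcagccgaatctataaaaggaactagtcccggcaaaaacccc

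The receptors showed no such split. NR1H2, which encodes the widely expressed LXR beta, fell from 114 ± 0.595 CPM with NS shRNA to 63.3 ± 1.43 CPM with shRNA #1 and 67.5 ± 2.36 CPM with shRNA #2 (SD, n = 3). Its log2 fold changes were -0.86 (SE 0.045, limma adjusted p = 3.3e-07) and -0.76 (SE 0.054, limma adjusted p = 8.11e-07). NR1H3, which encodes LXR alpha and is itself raised by LXR in human cells, was at 17.3, 17.4 and 16.8 CPM with NS shRNA, at 8.86, 7.28 and 9.51 CPM with shRNA #1 and at 7.12, 7.16 and 7.32 CPM with shRNA #2. Both knockdown groups lay far under the control, at 49.9% and 42.0% of its level. The log2 fold changes of NR1H3 were -1.01 (SE 0.103, limma adjusted p = 2.02e-05) and -1.25 (SE 0.078, limma adjusted p = 3.56e-07).

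**Figure D3:**
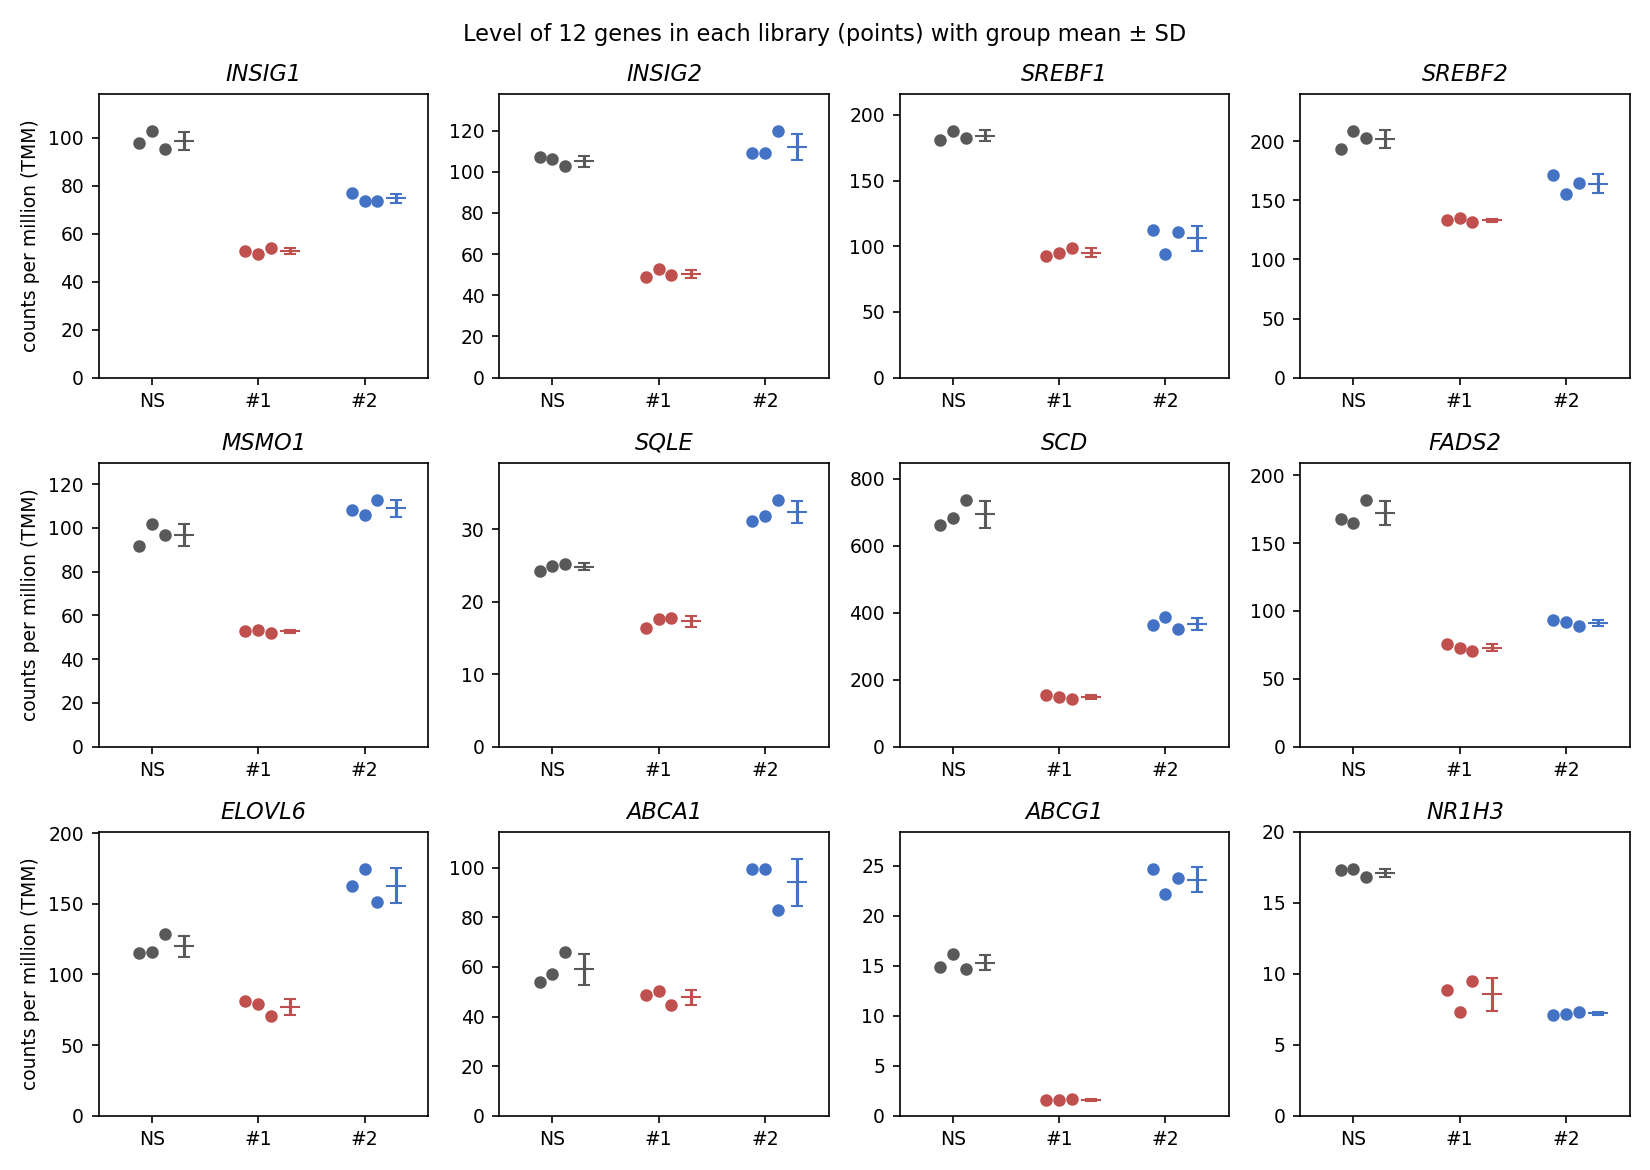
Level in CPM (TMM) of 12 genes in each of the 9 libraries (points), with the group mean and SD (n = 3) to the right of the points, for NS shRNA, ASAH1 shRNA #1 and ASAH1 shRNA #2, each axis starting at 0. SREBF1 and NR1H3 are low with both hairpins, SCD and FADS2 are lower with shRNA #1 than with shRNA #2, and SQLE, ELOVL6, ABCA1 and ABCG1 lie under the control with shRNA #1 and over it with shRNA #2.

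Set against each other, the hairpins differed for 25 of the 39 genes: 23 were higher with shRNA #2 than with shRNA #1 and 2 were lower. Across the 14381 genes tested between the hairpins, 31.4% were called higher with shRNA #2, 32.5% lower and 63.9% in either direction. Over the members the log2 ratio (shRNA #2 to shRNA #1) had a median of 0.31, beside -0.005 over all genes tested. The hairpin groups did not overlap for 25 members, against 67.5% of all genes tested. The share of members that differed (64.1%) was thus near that of all genes, whereas the share higher with shRNA #2 was 59.0%. ASAH1 itself went the other way, with a log2 ratio of -0.89 (edgeR adjusted p = 6.84e-08), so the hairpin that left more ASAH1 RNA had the lower levels of most of these genes. The sequence of each hairpin, the depth of knockdown and other effects of a hairpin cannot be told apart here.

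In the cholesterol branch 12 genes were higher with shRNA #2 than with shRNA #1, 1 was lower and 11 did not pass the test. INSIG2 differed the most, with a log2 ratio of 1.14 (SE 0.053, edgeR adjusted p = 1.51e-08), a 2.23-fold difference. MSMO1 followed at 1.04 (SE 0.051, edgeR adjusted p = 2.39e-08), then SQLE at 0.89 and STARD4 at 0.80. IDI1 differed by 0.60, INSIG1 by 0.49, HMGCS1 by 0.43, FDFT1 by 0.39, CYP51A1 by 0.38, SC5D by 0.35, SREBF2 by 0.29 and NSDHL by 0.21. The exception was MVK at -0.58 (SE 0.085, edgeR adjusted p = 0.000115). The difference in NSDHL (edgeR adjusted p = 0.0212) was lost without shRNA #1 replicate 1 (edgeR adjusted p = 0.0588) or 2 (edgeR adjusted p = 0.0663) and without shRNA #2 replicate 2 (0.15, edgeR adjusted p = 0.0758).

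In the fatty acid branch 8 of the 10 genes were higher with shRNA #2 and 0 were lower, by edgeR, also at an unadjusted p below 0.05 and by DESeq2. Under upper quartile scaling 7 were higher and 1 was lower. Across all genes 31.4% were higher and 32.5% lower. SCD differed by 1.30 (SE 0.055, edgeR adjusted p = 7.58e-09), a 2.48-fold difference, and ELOVL6 by 1.07 (SE 0.075, edgeR adjusted p = 3.24e-07). ACACA differed by 0.48, ACSS2 by 0.47, ELOVL5 by 0.37, FASN by 0.36, FADS2 by 0.31 and FADS1 by 0.23. FADS1 (edgeR adjusted p = 0.0284) lost the call without shRNA #1 replicate 2 (edgeR adjusted p = 0.0652) or 3 (edgeR adjusted p = 0.0902) and without shRNA #2 replicate 2 (0.14, edgeR adjusted p = 0.121). ACLY (-0.10) and LPIN1 (0.09) did not pass.

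In the LXR group the 3 targets were higher with shRNA #2, as were 31.4% of all genes. ABCG1 differed by 3.87 on the log2 scale (SE 0.09, edgeR adjusted p = 6.89e-11), a 14.8-fold difference, ABCA1 by 0.96 (SE 0.09, edgeR adjusted p = 3.17e-06) and MYLIP by 0.81 (SE 0.071, edgeR adjusted p = 1.8e-06). NR1H2 did not pass (0.08, edgeR adjusted p = 0.144). NR1H3 passed narrowly at -0.25 (edgeR adjusted p = 0.0414), its libraries overlapped, and the call was lost without any 1 of the 3 NS shRNA libraries, the 3 shRNA #2 libraries or shRNA #1 replicates 1 and 3 (log2 ratio from -0.37 to -0.16 over all 9 libraries left out in turn).

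No difference between the hairpins was called for 14 members. Of those that fell against NS shRNA with each hairpin, these were ACAT2, MVD, FDPS, TM7SF2, EBP, DHCR7, SREBF1 and NR1H2. Some of them passed when 1 library was left out, namely MVD (-0.48 without shRNA #2 replicate 3, -0.40 without shRNA #1 replicate 1), EBP (0.31 without shRNA #2 replicate 2, 0.32 without shRNA #1 replicate 3), DHCR7 (0.18 without shRNA #2 replicate 3, 0.17 without shRNA #1 replicate 1) and SREBF1 (0.21 without shRNA #2 replicate 2). The same held for LSS (0.15 without shRNA #1 replicate 3 or shRNA #2 replicate 2), SCAP (0.22 without shRNA #2 replicate 2) and ACLY (-0.16 without shRNA #2 replicate 2), so a difference between the hairpins is not settled for these genes. PMVK (0.18), HSD17B7 (0.15), FDPS (0.11), TM7SF2 (0.10) and ACAT2 (0.04) did not pass with any library left out, and neither did NR1H2 and LPIN1.

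**Figure D4:**
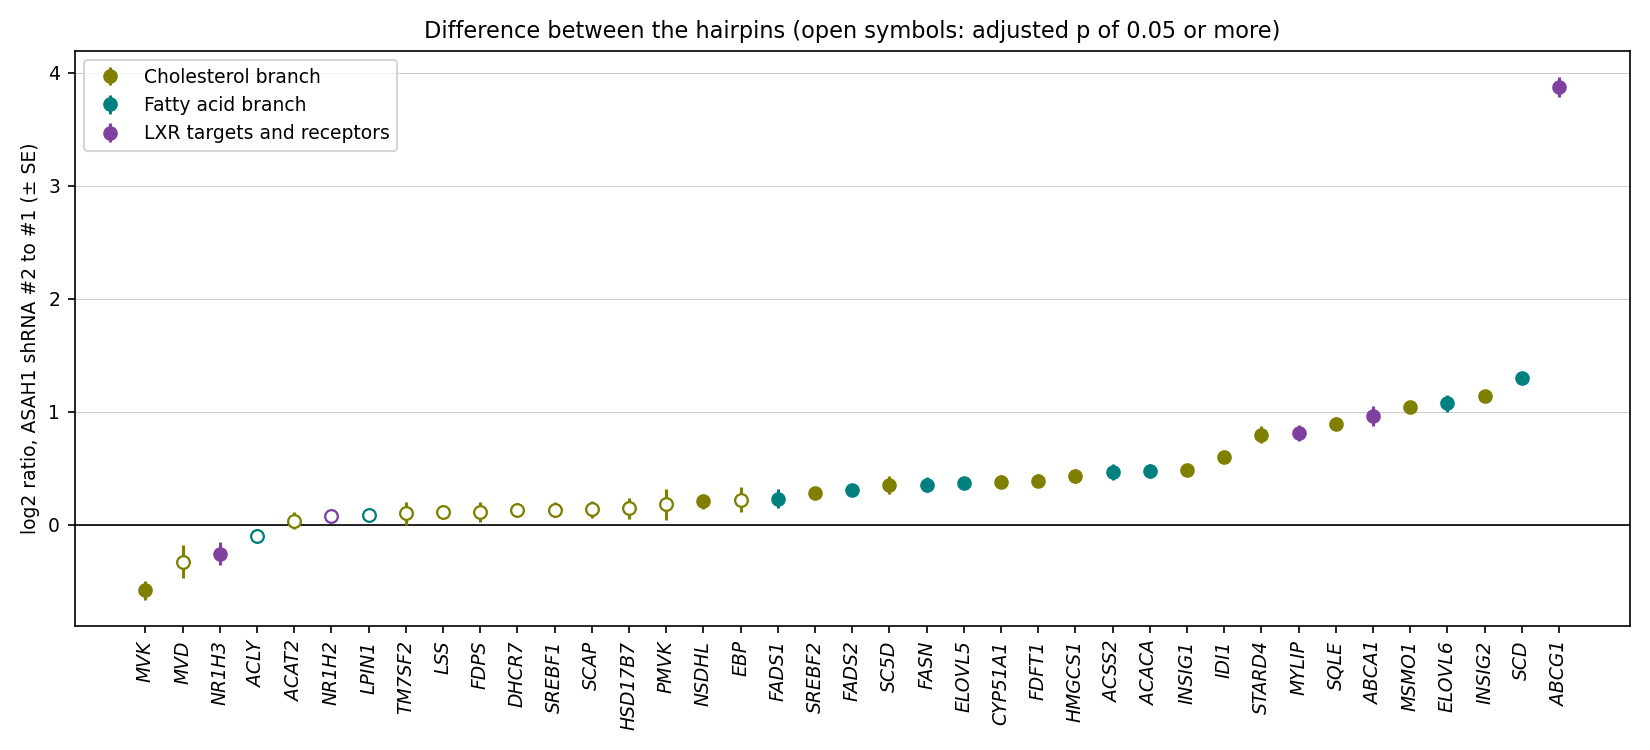
Log2 ratio of ASAH1 shRNA #2 to ASAH1 shRNA #1 (± standard error, edgeR, 3 libraries against 3 in a fit of all 9) for each of the 39 genes, ordered from low to high and coloured by group, with open symbols for an adjusted p of 0.05 or more. The standard error is the absolute log2 ratio over the square root of edgeR's F statistic. Most genes lie above 0, ABCG1 stands apart at 3.87, and MVK lies lowest at -0.58.

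Other genes of the same pathways, from wider lists, were counted for comparison. Of 11 further sterol genes, 4 were higher and 5 lower with shRNA #1 and 6 were higher and 5 lower with shRNA #2, with medians of -0.11 and 0.29. TMEM97, a sterol-responsive membrane protein, fell with both (-1.0 and -0.86). The lysosomal cholesterol carriers went apart: NPC2 fell with both (-0.81 and -1.0), whereas NPC1 rose with both (1.17 and 0.32). The sterol reductase LBR fell with shRNA #1 (-0.23) and rose with shRNA #2 (0.29).

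Of 8 genes of SREBP processing, 3 were higher and 3 lower with shRNA #1, and 1 was higher and 3 lower with shRNA #2. MBTPS1, the protease that makes the initial cut in SREBPs, fell with both (-0.51 and -0.42), and its cofactor SPRING1, listed under the older symbol C12orf49, rose with both (0.55 and 0.42). ERLIN1, a membrane protein that restrains SREBP activation, rose with shRNA #1 (0.25) and fell with shRNA #2 (-0.63).

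Of 23 further fatty acid genes, 20 passed the filter, of which 5 were higher and 9 lower with shRNA #1 and 10 were higher and 8 lower with shRNA #2. ACACB, the mitochondrial acetyl-CoA carboxylase, fell with both (-1.54 and -1.04), as did TECR (-0.67 and -0.95) and HACD3 (-0.82 and -0.49), which complete the elongation cycle. SCD5, a second desaturase, fell with shRNA #1 (-0.79) and rose with shRNA #2 (0.30), and so did HSD17B12, the reductase of the elongation cycle (-0.19 and 0.44). Of 9 further LXR genes, 6 passed the filter, of which 2 fell with shRNA #1 and 4 fell with shRNA #2, and the others did not pass the test. SMPDL3A, a phosphodiesterase that LXR raises, fell with both hairpins, to -0.88 and -1.76, unlike ABCA1, ABCG1 and MYLIP with shRNA #2. Among the further elongases, named after their values were seen, ELOVL1 rose with both hairpins, more with shRNA #1 (0.545) than with shRNA #2 (0.17). ELOVL7 did not pass with shRNA #1 (0.22, limma adjusted p = 0.0528) and rose with shRNA #2 (0.59). ELOVL3, with 2 to 33 reads per library, fell with both (-1.15 and -2.92). The shares over all genes given above are the background of these counts, and none of the lists was tested as a set.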

How the data were processed

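RNA sequencing of 9 libraries from MDA-MB-231 cells was used, 3 for each of NS shRNA, ASAH1 shRNA #1 and ASAH1 shRNA #2. Per the labels and the submitters' processing notes, the libraries were strand-specific and made with oligo-dT beads, although the series' design text names ribosomal RNA depletion. The authors trimmed with Trimmomatic 0.36, aligned to hg38 with STAR 2.7.1a, counted with htseq-count on the reverse strand and normalized with DESeq2 1.28, 1 table for each hairpin with NS shRNA. Another part of the methods names Bowtie2, RSEM and edgeR. The deposited per-library values are a normalized signal, a read count over a size factor. Further columns that the authors deposited, a log2 fold change with its standard error, a Wald score and p-values, were not used.

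Every signal was a whole number of reads (100% within 0.01), which gave back the reads; those of the NS shRNA libraries did not differ between the tables. In 1 table, 28 gene symbols turned into dates were restored from the other. All per-library columns were matched to a library.

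Each hairpin was compared with NS shRNA within its table by limma 3.58.1 (R 4.3.3) with an intensity trend on log2(value + 1), keeping genes whose mean reached 10, two-sided, with Benjamini-Hochberg adjustment over all genes tested. The hairpins were compared by edgeR 4.0.16 (quasi-likelihood, TMM) on the reads of the 9 libraries, with the same minimum. Reported CPM come from the same scaling; the log2 ratio of mean CPM differed from limma's value by -0.02 to 0.021 over the members. Fits were also run on simulated counts with 200 changed genes. Far more genes were called in these data, so the simulation does not measure the error rate here. The p-values measure the spread between libraries that the design text calls biological replicates, and depth limits genes with few reads.

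The members and gene lists were chosen with earlier results of these data known. All members are named. Values by library were set to be printed for members with an absolute log2 fold change of at least 1 past the test in either comparison and for INSIG1, SREBF1, SREBF2, FASN, SCD and ABCA1. From each wider list were named the up to 3 genes with the largest mean change in the same direction and a mean of at least 100, and the up to 2 called in opposite directions with the largest difference. Alternatives were pseudocounts of 0.1 and 5, no filter, a mean of at least 50, no trend, upper quartile and total-count rescaling, edgeR and DESeq2 1.42.0 on the reads, limma on the 9 libraries jointly, a replicate block and each library left out. Positions, exon lengths and overlaps are from GENCODE v44 on hg38, and promoters from RefSeq.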

Additional observations from a re-analysis of the deposited data

Results flagged for a closer look

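The hairpins differed from each other for 25 of the 39 genes by edgeR's test of shRNA #2 against shRNA #1, at an adjusted p below 0.05, and each is listed here with its log2 ratio. In the cholesterol branch the level was higher with shRNA #2 for INSIG2 (1.14), MSMO1 (1.04), SQLE (0.89), STARD4 (0.80), IDI1 (0.60), INSIG1 (0.49), HMGCS1 (0.43), FDFT1 (0.39), CYP51A1 (0.38), SC5D (0.35), SREBF2 (0.29) and NSDHL (0.21) and lower for MVK (-0.58). In the fatty acid branch it was higher for SCD (1.30), ELOVL6 (1.07), ACACA (0.48), ACSS2 (0.47), ELOVL5 (0.37), FASN (0.36), FADS2 (0.31) and FADS1 (0.23). In the LXR group it was higher for ABCG1 (3.87), ABCA1 (0.96) and MYLIP (0.81) and lower for NR1H3 (-0.25). Over all genes tested 63.9% differed between the hairpins, so a difference as such was common, and the agreement of sign among the members was not tested. The cause of these differences was not tested.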

How the results depend on the processing

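Under every alternative run, 29 of the 31 calls with shRNA #1 held, 22 of the 27 with shRNA #2 and 22 of the 25 between the hairpins, and 0 called members turned direction. The lost calls are FADS1 and LPIN1 with shRNA #1, EBP, FDFT1, HMGCS1, MSMO1 and NSDHL with shRNA #2, and FADS1, NR1H3 and NSDHL between the hairpins. All were small changes. Of the branch counts, cholesterol members higher with shRNA #2 went from 2 to 1 without the trend, under upper quartile and total-count rescaling and with the replicate block (1 to 3 with a library left out). Between the hairpins, cholesterol members lower with shRNA #2 went from 1 to 2 under upper quartile scaling and with no filter (1 to 2 with a library left out), fatty acid members lower from 0 to 1 under upper quartile scaling (0 to 1), and LXR members lower from 1 to 0 with no filter, DESeq2, the 6 knockdown libraries alone and the replicate block (0 to 1). The cause was not tested.

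Other members gained a call, apart from those with a library left out: with shRNA #2, IDI1 under total-count rescaling (-0.16) and SCAP (-0.20 and -0.24) and LPIN1 (-0.19 and -0.23) under upper quartile and total-count rescaling, and between the hairpins, MVD under upper quartile scaling (-0.40) and with no filter (-0.31), LSS by DESeq2 (0.12) and in 1 limma fit of the 9 libraries (0.12), EBP with no filter (0.24) and ACLY under upper quartile scaling (-0.17).

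Values that changed sign were near 0 and not called. With shRNA #2, upper quartile and total-count rescaling gave LSS -0.072 and -0.11, SC5D -0.032 and -0.073, STARD4 -0.072 and -0.11, INSIG2 -0.0055 and -0.046, FASN -0.024 and -0.065, and FADS1 -0.054 and -0.095. Between the hairpins, upper quartile scaling gave ACAT2 -0.037. With a library left out, PMVK ran from -0.048 to 0.15 with shRNA #1. With shRNA #2, IDI1 ran from -0.055 to 0.017, LSS from -0.002 to 0.057, HSD17B7 from -0.079 to 0.037, SC5D from -0.015 to 0.15, STARD4 from -0.07 to 0.077, ACLY from -0.083 to 0.036, FASN from -0.0046 to 0.12 and FADS1 from -0.048 to 0.1. Between the hairpins, ACAT2 ran from -0.022 to 0.089.

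The groups share replicate numbers, but the numbers did not pair the libraries: deviations of same-numbered libraries correlated at -0.188, -0.131 and -0.268 (shRNA #1) and -0.0982, -0.177 and -0.316 (shRNA #2) with NS shRNA. With the replicate block, cholesterol members lower with shRNA #2 numbered 11 in place of 14, fatty acid members lower with shRNA #1 5 in place of 7, and those higher between the hairpins 7 in place of 8. The call of FDFT1 with shRNA #2 was lost under the block alone (-0.21, limma adjusted p = 0.0529).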
